A study of Homo sapiens with 3 samples.

Results

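The transcriptome described here is that of DU145, a human prostate cancer cell line taken from a brain metastasis and grown without androgen dependence, after transfection with a negative control siRNA. The values are those of the control library alone, 1 of the 3 libraries of the series, and all of its 23813 listed genes were used. The cells had received the siRNA at 75 nM with a lipid reagent, and RNA was taken at 48 h and sequenced as read pairs. The other libraries of the series carry siRNAs against TSPAN18 and are not compared here. With 1 library there is no replicate, so each level stands with a counting interval only, and it is the level of transfected cells of 1 line, not of untreated cells or of tumour tissue.

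Prostate glands are lined by luminal cells, which secrete under androgen control and carry keratins 8 and 18, and by basal cells, which carry TP63 and keratins 5 and 14 and rest on a laminin matrix. Carcinoma lines that no longer depend on androgen are known to draw on growth factor and cytokine receptors. Epithelial cells hold together through E-cadherin and tight junctions, and cells that lose them often gain vimentin and the factors ZEB, SNAI and TWIST. Calcium enters many such cells when STIM proteins sense an empty endoplasmic reticulum and open ORAI channels in the plasma membrane. TSPAN18, the gene targeted elsewhere in the study, belongs to the tetraspanins, which are membrane proteins with 4 spans that gather partners into membrane domains.

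Levels are given in CPM (the authors' counts scaled to a common library total), the share of all counted reads that fell on a gene. A longer messenger gives more reads, so single genes are ordered by level only as CPM per kilobase of exonic length, while ranks, medians and limits in CPM are shares of reads, not corrected for length. Worked back from the smallest value, the CPM total stood for 30058731 counted read pairs, and pairs not counted are not known. On that scale 1 pair was worth 0.0333 CPM, and 3 pairs, taken as the floor, were worth 0.0998 CPM. Brackets hold exact 95% Poisson intervals, which cover counting error only. A gene that is not among the listed genes has no value here, and its level is not known. In RNA from many cells, a low level in every cell and a higher level in a few cannot be told apart.

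Few genes carried most of the reads. At or above 1 CPM stood 14236 genes, 59.8% of those listed, and they held 99.7% of the reads. At or above 10 CPM stood 9723 genes (40.8%), at or above 100 CPM 2446 genes (10.3%), and at or above 1000 CPM 61 genes. The 10 highest genes held 7.23% of the reads, the 1000 highest held 48.4%, and 1085 genes held 50%. The median was 3.33 CPM over all listed genes and 21.8 CPM over the 14966 protein-coding ones, of which 82.2% were at or above 1 CPM.

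The top of the ranking belonged to respiration, the cytoskeleton, translation and glycolysis. The 16 genes of the mitochondrial genome took 7.27% of the reads, with the cytochrome oxidase subunit MT-CO1 at 17924 CPM, the ribosomal RNA MT-RNR2 at 11191 CPM and the complex I subunit MT-ND4 at 10699 CPM. Outside that genome, the cytoplasmic actins ACTB and ACTG1 took 4623 and 3918 CPM, the elongation factors EEF1A1 and EEF2 4069 and 2928 CPM, and the glycolytic enzymes PKM and ENO1 3849 and 2547 CPM. Corrected for length, ACTB (1314 CPM per kilobase) and ACTG1 (1309) led the nuclear genes. They were followed by the chaperone HSP90AB1 at 1104, the ferritin light chain FTL at 1044 and the actin-sequestering peptide TMSB10 at 1039 CPM per kilobase. The calcium-binding protein S100A11 (687) and the chromatin protein HMGA1 (629) stood beside EEF1A1 (684) and GAPDH (618 CPM per kilobase), though with the longest transcript GAPDH (982) and EEF1A1 (916) lay above S100A11 (787) and HMGA1 (678). The 84 listed ribosomal protein genes held 3.08% of the reads at a median of 296 CPM, and their many processed pseudogenes make single values uncertain.

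**Figure D1:**
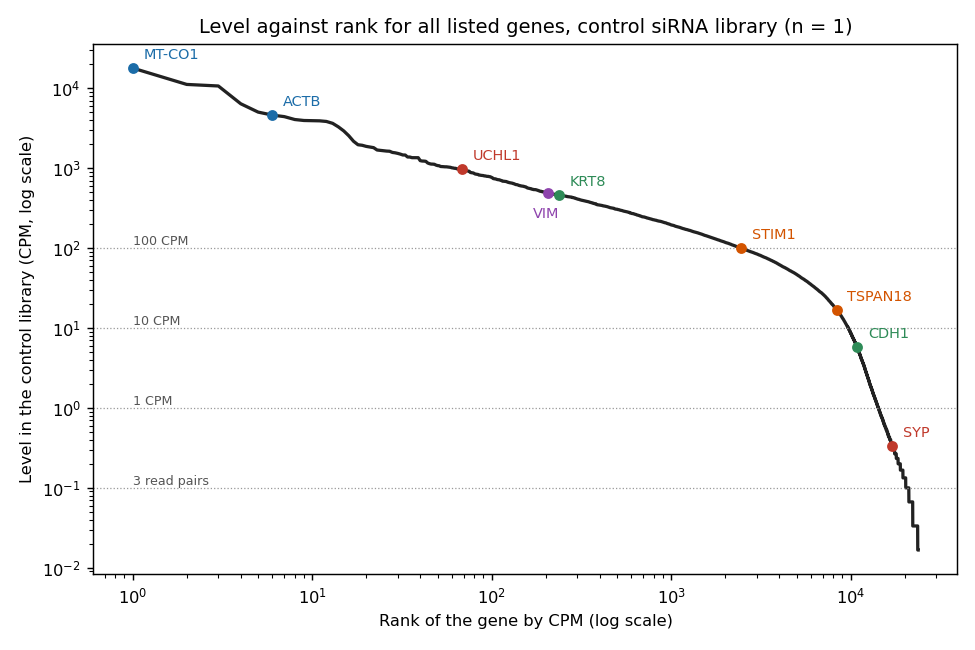
CPM of each listed gene (vertical axis, log scale) against its rank (horizontal axis, log scale) in the control library, n = 1; dotted lines mark 100, 10 and 1 CPM and 3 read pairs. The curve runs from MT-CO1 at 17924 CPM, stays above 100 CPM for 2446 genes and drops steeply past 10 CPM, with STIM1 at 100.2, TSPAN18 at 16.9, CDH1 at 5.72 and SYP at 0.333 CPM marked.

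At the other end, 3535 genes (14.8%) had 3 pairs or fewer. Of these, 1454 were long noncoding RNAs (41.1%), 964 pseudogenes (27.3%) and 707 protein-coding genes. The lowest listed value, 0.0166 CPM, is less than the worth of 1 pair and was read as 0 pairs. It was given to 163 genes, 18 of them protein-coding, among which were chromogranin A (CHGA), interleukin 1 beta (IL1B) and the growth factors FGF7 and FGF19. For a count of 0 the limit of 3 pairs is 0.0998 CPM, and the exact 95% interval of CHGA reaches 0.123 CPM. GENCODE annotates 19951 protein-coding genes, and 4985 of them are not among the listed genes.

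Promoter windows of genes at higher levels held more CG dinucleotides, with no test run. RefSeq windows of 300 bases, from 250 before to 50 after the annotated start (GRCh38.p14), were matched to 11545 of 14953 listed protein-coding genes (77.2%). The median number of CG dinucleotides in a window was 9 for genes at 3 pairs or fewer, 22 for genes between 1 and 10 CPM, 27 between 10 and 100 CPM and 29 between 100 and 1000 CPM. Over all 15841 RefSeq protein-coding windows it was 22, and over the 4302 windows of protein-coding genes not listed it was 7. These are descriptions across genes, which are not independent of each other, and the window follows RefSeq's start, which need not be the start used in DU145. The following stretches, the 120 bases before the start written 5′ to 3′, show the range, with CG and any TATAAA in capitals.
EGFR (chr7:55018897-55019016, plus strand): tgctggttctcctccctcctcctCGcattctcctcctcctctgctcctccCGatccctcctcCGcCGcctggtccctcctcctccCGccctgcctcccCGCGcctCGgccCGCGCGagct
STIM1 (chr11:3855544-3855663, plus strand): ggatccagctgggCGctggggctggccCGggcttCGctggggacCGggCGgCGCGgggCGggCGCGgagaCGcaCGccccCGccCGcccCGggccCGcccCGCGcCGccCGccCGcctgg
UCHL1 (chr4:41256808-41256927, plus strand): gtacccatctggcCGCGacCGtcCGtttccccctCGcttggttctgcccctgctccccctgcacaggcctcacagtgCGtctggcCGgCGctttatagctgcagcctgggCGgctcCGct
CHGA (chr14:92923030-92923149, plus strand): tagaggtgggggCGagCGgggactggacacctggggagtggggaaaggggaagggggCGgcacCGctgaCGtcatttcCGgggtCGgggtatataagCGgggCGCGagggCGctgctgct
PLAU (chr10:73910490-73910609, plus strand): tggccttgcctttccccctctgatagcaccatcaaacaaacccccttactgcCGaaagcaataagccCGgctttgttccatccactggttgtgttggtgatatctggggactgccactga
CXCL8 (chr4:73740449-73740568, plus strand): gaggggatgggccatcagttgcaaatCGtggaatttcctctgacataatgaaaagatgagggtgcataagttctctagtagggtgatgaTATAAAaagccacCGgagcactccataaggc
TRPM8 (chr2:233917253-233917372, plus strand): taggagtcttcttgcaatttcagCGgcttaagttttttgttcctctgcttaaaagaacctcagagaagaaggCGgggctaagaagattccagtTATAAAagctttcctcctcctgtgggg

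The growth factor receptor EGFR (498 CPM), the calcium sensor STIM1 (100.2 CPM) and the ubiquitin hydrolase UCHL1 (966 CPM) had 33, 38 and 25 CG in their windows. CHGA had 24 and was read at 0 pairs. The protease gene PLAU (435 CPM) had 5 CG and the chemokine gene CXCL8 (205 CPM) had 4. TRPM8, a cold-activated channel of the prostate, had 3 CG and 0.0998 CPM. The number of CG did not sort single genes by level: of 482 protein-coding genes at 3 pairs or fewer with a window, 142 (29.5%) had 20 CG or more, and of 1957 genes at or above 100 CPM, 110 (5.62%) had under 10.

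The motif TATAAA, searched on the gene's strand with its first base 40 to 20 bases before the start, was in 3.64% of all windows. Both CXCL8 and TRPM8 have it. Its share was 6.85% at 3 pairs or fewer, 0.978% between 10 and 100 CPM, and 11.8% (4 of 34) at or above 1000 CPM, in EEF2, RPLP0, ANXA2 and PPIA. GGGCGG, searched on both strands in the bases before the start, was in 36.9% at 3 pairs or fewer and 73.2% between 100 and 1000 CPM, against 56.0% of all. CCAAT, searched in the same way, was in 33.2% and 35.4% of those groups, against 34.5% of all. A start at C followed by 4 pyrimidines, the mark of messengers whose translation follows growth signals, was in 65.7% of ribosomal protein windows (44 of 67) and 4.602% of all. A match is a run of letters and not a site shown to be bound.

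**Figure D2:**
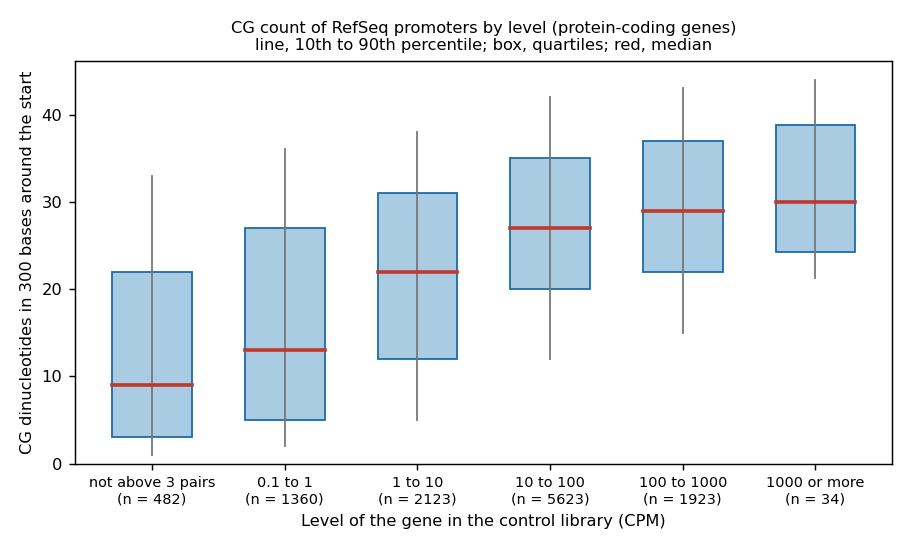
Number of CG dinucleotides in the 300-base RefSeq window (vertical axis) for protein-coding genes grouped by CPM in the control library (horizontal axis); lines span the 10th to 90th percentiles, boxes the quartiles and red bars the medians. Medians run from 9 (482 genes at 3 pairs or fewer) to 30 (34 genes at or above 1000 CPM), and the groups overlap widely.

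Genes were then read by function, in 24 lists that hold 941 genes once each is counted once. Of these, 717 are among the listed genes, 541 were at or above 1 CPM, and 64 were at or under 3 pairs. For 43, over 20% of the exonic length is shared with another annotated gene, which makes their values uncertain. Counts of listed members are to be read against the 82.2% of all listed protein-coding genes at or above 1 CPM. The median of listed members ran from 118.2 CPM for calcium-binding proteins to 0.166 CPM for genes restricted to other organs, beside 21.8 CPM over all protein-coding genes.

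**Figure D3:**
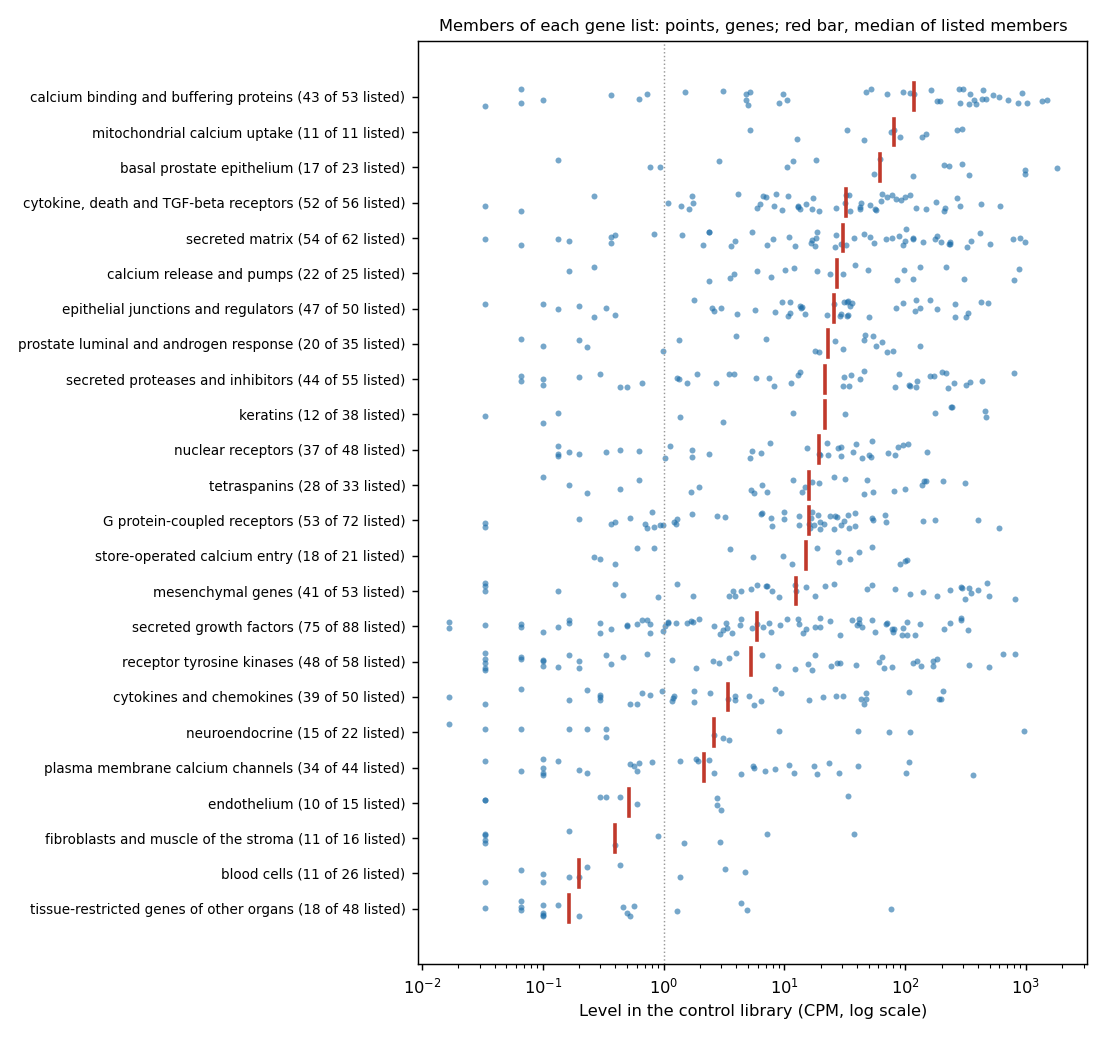
CPM in the control library (horizontal axis, log scale) of each listed member (points) of the 24 gene lists (rows), with the median of listed members as a red bar and 1 CPM as a dotted line; row labels give listed and total members. Calcium-binding proteins have the highest median share of reads (118.2 CPM), and the 4 lists of other organs, blood, stroma and endothelium have medians from 0.166 to 0.516 CPM.

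Of the prostate lineage, pioneer factors were present while classic androgen-induced genes were not among the listed genes. FOXA1, which opens chromatin for other factors, was at 64.5 CPM [61.7 to 67.4] and GATA2, which acts beside it, at 71.1 CPM [68.1 to 74.2]. Per kilobase FOXA1 (16.2) and GATA2 (15.9) overlapped in their intervals. FKBP5, a cochaperone of steroid receptors, was at 132 CPM and the metalloreductase STEAP1 at 17.8 CPM. SPDEF, an ETS factor of secretory epithelium, was at 0.200 CPM, TRPM8 at 0.0998 CPM and STEAP4 at 0.0665 CPM. KLK2, KLK3, KLK4, TMPRSS2, FOLH1, ACPP and HOXB13 are not among the listed genes. In all, 20 of 35 luminal and androgen response genes are listed and 15 were at or above 1 CPM.

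The basal list was split. Some matrix and adhesion members were high, such as integrin beta 1 (ITGB1) at 1809 CPM and the laminin chain LAMB3 at 983 CPM. The integrin chain ITGB4 and the laminin chain LAMA3 were lower, at 61.6 and 54.9 CPM, or 9.11 and 3.74 per kilobase. Stratifin (SFN), a member outside matrix and adhesion, was at 232 CPM. Per kilobase ITGB1, LAMB3 and SFN followed the same order, at 300.9, 210 and 176. The factor TP63 and the keratins KRT5 and KRT14 that define basal cells are not among the listed genes, and KRT16 was at 0.133 CPM. KRT15, another basal keratin, was at 11.7 CPM and the hemidesmosome collagen COL17A1 at 18.4 CPM. Of 23 members 17 are listed and 14 were at or above 1 CPM.

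Neuroendocrine genes gave a mixed picture. UCHL1, a neuronal deubiquitinase, was at 966 CPM [955 to 978], rank 68 of all genes by share of reads, and 424 CPM per kilobase. NKX2-1, a homeobox factor of lung and thyroid, was at 110.5 CPM [106.8 to 114.3], and REST, the repressor of neuronal genes, at 73.3 CPM [70.3 to 76.4]. The neuronal enolase ENO2 was at 40.65 CPM, the Notch ligand DLL3 at 8.95 CPM, FOXA2 at 3.49 CPM and SNAP25, of synaptic vesicle fusion, at 3.13 CPM. Of the vesicle and granule proteins, SYP was at 0.333 CPM, CHGB at 0.0333 CPM and CHGA at 0 pairs. NEUROD1, INSM1, SOX2 and MYCN are not among the listed genes. Of 22 members 15 are listed and 8, the repressor REST among them, were at or above 1 CPM.

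NKX2-1 was looked at further with its genomic neighbours and lung targets, chosen after its value was seen. The neighbours SFTA3 and NKX2-8 were at 8.95 and 8.65 CPM, SFTA3 with 31.6% of its exonic length shared with another gene. The lung secretory genes NAPSA and SFTPB were at 1.56 and 0.0665 CPM, and SFTPC was at 0.0333 CPM.

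The keratins of simple epithelium, KRT7, KRT8, KRT18 and KRT19, were each above 100 CPM. KRT8 was at 464 CPM [456 to 472], KRT7 at 456 CPM [449 to 464], KRT19 at 241 CPM [236 to 247] and KRT18, the partner of KRT8, at 175 CPM [170.5 to 180.0]. Per kilobase KRT7 (111.5) and KRT19 (103) led, KRT8 followed at 67.5, and KRT80 (55.8) and KRT18 (54.5) overlapped in their intervals. With the longest transcript as length, KRT18 (83.9) lay above KRT80 (62.3). KRT80 was at 243 CPM, KRT10, of stratified skin, at 31.6 CPM, the basal keratin KRT15 at 11.7 CPM, the hair keratins KRT81 and KRT86 at 3.09 and 1.36 CPM, and KRT13 at 0.0333 CPM. Of 38 keratins 12 are listed and 9 were at or above 1 CPM.

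Junction genes ranged from alpha-catenin to a low E-cadherin. Of 50 epithelial genes 47 are listed and 40 were at or above 1 CPM, at a median of 25.6 CPM. That is 85.1% of those listed, near the 82.2% of all listed protein-coding genes, whose median was 21.8 CPM. Alpha-catenin (CTNNA1), which ties cadherins to actin, led per kilobase at 48.2, ahead of the tricellular junction receptor LSR (45.8) and the desmosomal cadherin DSG2 (41.5). CDH1, E-cadherin itself, was at 5.72 CPM [4.90 to 6.64] and 0.926 CPM per kilobase, place 35 of the 47, and P-cadherin (CDH3) was at 33.2 CPM and 5.32 per kilobase. EPCAM, a surface adhesion protein of carcinomas, was at 13.7 CPM. The splicing regulators of the epithelial state were unequal per kilobase, ESRP2 at 5.90 (32.8 CPM [30.8 to 34.9]) and ESRP1 at 0.04095 (0.200 CPM [0.0733 to 0.435]). CLDN7, PRSS8 and RAB25, all usual in polarised epithelium, were at 0.399, 0.0998 and 0.0333 CPM.

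Of 53 mesenchymal genes 41 are listed and 34 were at or above 1 CPM, at a median of 12.5 CPM. That is 82.9% of those listed, near the 82.2% of all listed protein-coding genes, and the median is under their 21.8 CPM. The intermediate filament vimentin (VIM) was at 495 CPM [488 to 503] and 96.0 CPM per kilobase, with 24.4% of its exonic length shared with another gene. Per kilobase it lay below the receptor AXL (157) and the matricellular protein CYR61 (118), and above the ectonucleotidase NT5E (89.2) and the collagen crosslinker LOXL2 (82.7). With the longest transcript as length VIM (185.8) led, ahead of AXL (170.7), LOXL2 (133), CYR61 (127) and NT5E (103).

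Of the factors that drive the mesenchymal state, ZEB1 was at 48.3 CPM [45.9 to 50.9], TWIST2 at 25.9 CPM [24.2 to 27.8], ZEB2 at 12.5 CPM, SNAI1 at 12.3 CPM and SNAI2 at 1.76 CPM. Per kilobase the order was TWIST2 (13.8), SNAI1 (7.30), ZEB1 (5.59), SNAI2 (0.520) and ZEB2 (0.5005), the last pair with overlapping intervals. That order depends on the length used: with the longest transcript ZEB1 (7.71) lay above SNAI1 (7.30) and ZEB2 (1.31) above SNAI2 (0.6235). Fibronectin (FN1) was at 18.0 CPM and 1.04 CPM per kilobase, and the fibrillar collagen chains COL3A1 and COL1A2 were at 0.399 and 0.0333 CPM. N-cadherin (CDH2), TWIST1 and SPARC are not among the listed genes.

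**Figure D4:**
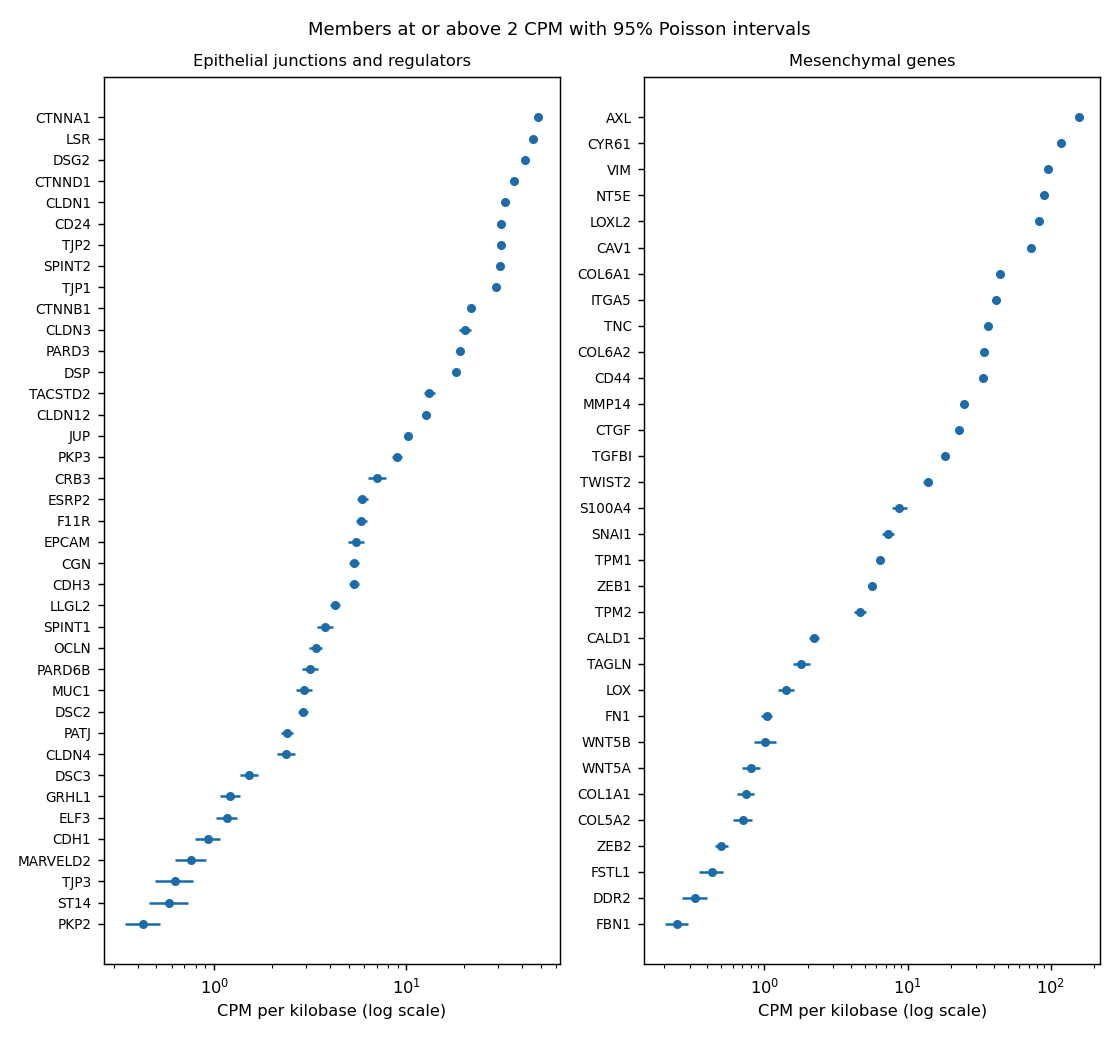
CPM per kilobase (horizontal axes, log scale) of the epithelial (left) and mesenchymal (right) genes at or above 2 CPM in the control library, with exact 95% Poisson intervals as bars. CTNNA1 leads on the left at 48.2 and CDH1 lies low at 0.926, while AXL leads on the right at 157 and VIM lies at 96.0.

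Receptor tyrosine kinases were led by a small group. AXL, which binds GAS6, was at 808 CPM [798 to 819] and the ephrin receptor EPHA2 at 650.4 CPM [641 to 660], and per kilobase their intervals overlapped, at 156.8 and 156.4. The receptor for hepatocyte growth factor (MET, 47.9) and EGFR (39.8) followed, then EPHB4 (28.8 CPM per kilobase). FGFR1, IGF1R and ERBB2 lay at 12.24, 12.22 and 12.18 CPM per kilobase and could not be ordered, while with the longest transcript IGF1R (13.9) lay under FGFR1 (27.25) and ERBB2 (25.5). Of 58 kinases 48 are listed, 30 were at or above 1 CPM and 10 at or under 3 pairs. The last group included ERBB4 at 0.0665 CPM and KIT and PDGFRA at 0.0333 CPM.

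Their ligands were unevenly present. Of the ligands of EGFR, amphiregulin (AREG) led per kilobase at 47.6, ahead of HBEGF (23.6), TGFA (19.0) and EREG (18.0), the last pair changing places with the longest transcript, whereas EGF was at 0.538. The AXL ligands GAS6 and PROS1 were at 6.86 and 10.3 CPM per kilobase. HGF, the ligand of MET, and IGF1, that of IGF1R, are not among the listed genes.

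Cytokine and death receptors formed the fullest of the receptor lists, with 52 of 56 listed and 49 of these, 94.2%, at or above 1 CPM. TNFRSF12A, the receptor of TWEAK, led per kilobase at 114 and stood at 211 CPM, but with the longest transcript TNFRSF1A (128) lay above it (126). The oncostatin M receptor (OSMR) was at 613 CPM [604 to 622], the TRAIL receptor TNFRSF10B at 423 CPM and the TNF receptor TNFRSF1A at 284 CPM. The subunit shared by the interleukin 6 family (IL6ST) was at 267 CPM, LIFR at 84.7 CPM, IL6R at 42.4 CPM and IL11RA at 10.8 CPM.

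Both signalling receptors for TGF-beta were listed, TGFBR2 at 212 CPM and 45.2 per kilobase and TGFBR1 at 32.3 CPM and 4.72 per kilobase. TNFRSF11A (RANK), the receptor of an osteoclast factor, was at 42.6 CPM, and its ligand TNFSF11 is not among the listed genes. CSF2RB, the common beta chain of blood cell cytokines, was at 0.0333 CPM.

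Nuclear receptors had a median of 19.3 CPM, with 37 of 48 listed and 29 at or above 1 CPM. PPARD, a fatty acid sensor, led at 153 CPM and 34.3 per kilobase. The glucocorticoid receptor (NR3C1), the stress hormone receptor, was at 105.0 CPM [101.3 to 108.7] and the vitamin D receptor (VDR) at 23.0 CPM. The oestrogen receptor ESR1 and the progesterone receptor PGR were at 0.200 and 0.133 CPM.

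Among G protein-coupled receptors, 53 of 72 are listed and 41 were at or above 1 CPM. The orphan receptor GPRC5A led at 594 CPM and 70.4 per kilobase, then the adhesion receptor ADGRG6 (399 CPM, 47.1). The protease-activated receptor F2RL1 was at 30.9 CPM, PTH1R, the receptor of parathyroid hormone, at 1.73 CPM and the chemokine receptor CXCR4 at 1.26 CPM. The calcium-sensing receptor CASR is not among the listed genes.

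**Figure D5:**
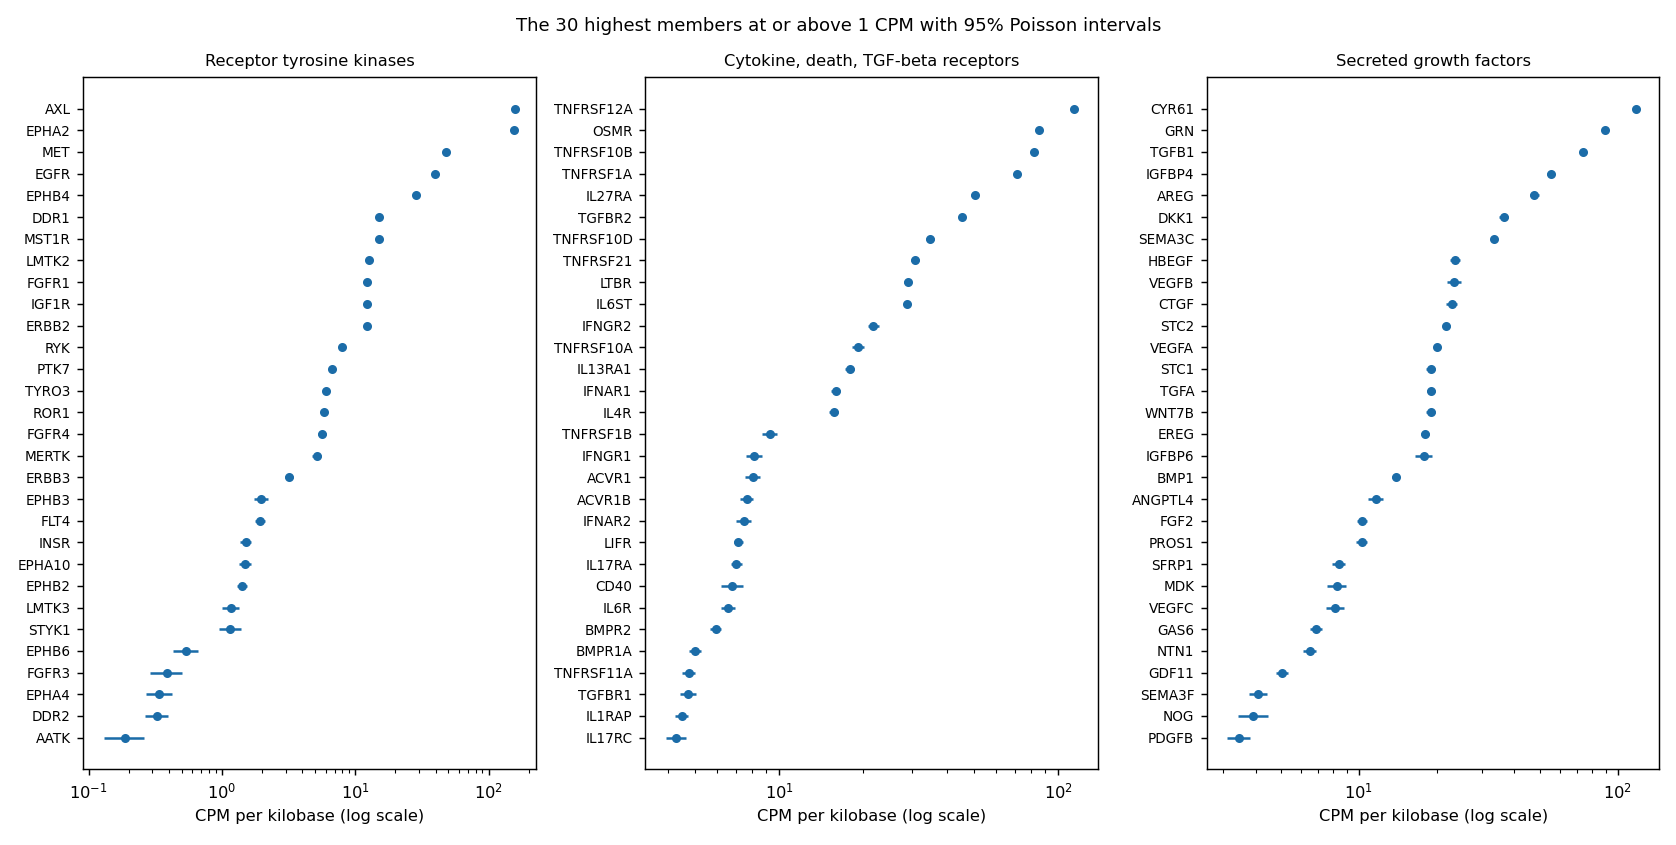
CPM per kilobase (horizontal axes, log scale) of up to 30 members at or above 1 CPM of the receptor tyrosine kinase, cytokine receptor and growth factor lists in the control library, with exact 95% Poisson intervals as bars. AXL and EPHA2 lead the kinases at 156.8 and 156.4, TNFRSF12A the cytokine receptors at 114 and CYR61 the growth factors at 118.

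Store-operated calcium entry was represented by both of its parts. The channel ORAI1 was at 89.9 CPM [86.5 to 93.3], the sensor STIM1 at 100.2 CPM [96.6 to 103.8] and STIM2 at 53.4 CPM [50.9 to 56.1]. Per kilobase ORAI1 (39.7) lay above SARAF (34.4), which shuts the channel down, STIM1 (14.05) and STIM2 (7.73). With the longest transcript SARAF (47.8) lay above ORAI1 (42.0). ORAI2 was at 3.76 CPM per kilobase and ORAI3 at 1.35, the latter with 52.9% of its exonic length shared. Of the TRPC channels, TRPC1 was at 28.1 CPM and TRPC6 at 0.399 CPM.

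For release and clearance of calcium, 22 of 25 genes are listed and 20 were at or above 1 CPM. The reticulum pump ATP2A2 was at 801 CPM [791 to 811] and the leak protein TMBIM6 at 872 CPM, or 58.3 and 141 per kilobase. The IP3 receptor ITPR3 (31.02 CPM per kilobase) lay above ITPR2 (1.47) and ITPR1 (0.940), which with the longest transcript change places (1.65 and 2.99), and the ryanodine receptors RYR3 and RYR1 at 0.377 and 0.240. The plasma membrane pumps ATP2B4 and ATP2B1 were at 22.2 and 13.9 CPM per kilobase.

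All 11 genes of mitochondrial calcium uptake were at or above 1 CPM, at a median of 80.2 CPM. The outer membrane channels VDAC2 (95.7) and VDAC1 (93.7 CPM per kilobase) overlapped in their intervals. The uniporter pore MCU was at 80.2 CPM and 17.7 per kilobase, and SMDT1 (EMRE), which the pore needs to conduct, at 5.19 CPM [4.41 to 6.07] and 2.998.

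Of plasma membrane calcium channels 34 of 44 are listed, with 20 of these (58.8%) at or above 1 CPM and a median of 2.16 CPM. The mechanosensitive channel PIEZO1 led at 362 CPM and 32.0 per kilobase, followed by the channel kinase TRPM7 (108 CPM, 8.69). The voltage-gated pore subunits CACNA1B, CACNA1D and CACNA1A were at 0.440, 0.02585 and 0.00231 CPM per kilobase.

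Of the 43 listed calcium-binding proteins 23 were at or above 100 CPM. That level was reached by 2423 of the 14966 listed protein-coding genes and by 10.3% of all listed genes. S100A11, S100A6 and S100A16 led per kilobase at 687, 449 and 352.5. The reticulum chaperones HSPA5 (1354 CPM) and calreticulin (CALR, 936 CPM) were at 347 and 345 per kilobase and overlapped in their intervals, while with the longest transcript CALR (492) lay above HSPA5 (347). Annexin A2, a membrane-binding protein, was at 1501 CPM and its partner S100A10 at 387 CPM. Of the calmodulin genes, CALM3 (93.2 CPM per kilobase) lay above CALM2 (43.6). S100A9, S100P and CALB1 were at 0.0998 CPM or less.

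Of 33 tetraspanins, 28 are listed and 23 were at or above 1 CPM, at a median of 15.9 CPM. CD63, of late endosomes and exosomes, was at 310.3 CPM [304 to 317] and 118 per kilobase. The integrin partner CD151 followed at 37.8, then CD9 (32.8), TSPAN3 (24.0) and CD81 (19.3 CPM per kilobase). CD82, known as a metastasis suppressor of prostate cancer, was at 19.5 CPM [18.0 to 21.1] and 4.81 per kilobase. TSPAN18 was at 16.9 CPM [15.5 to 18.5] and 2.88 per kilobase, place 17 of the 28, where its interval overlapped that of TSPAN6 (3.08) above it and not that of CD37 (1.71) under it. With the longest transcript TSPAN18 (4.004) lay above TSPAN6 (3.68). TSPAN11 was lowest at 0.0140 CPM per kilobase.

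Secreted growth factors covered 75 of 88 listed members, 55 of them at or above 1 CPM, at a median of 5.96 CPM. CYR61 led per kilobase at 118, then progranulin (GRN, 89.8), TGFB1 (73.2), the IGF-binding protein IGFBP4 (55.2), AREG (47.6) and the Wnt antagonist DKK1 (36.4). With the longest transcript GRN (141) lay above CYR61 (127), and AREG (63.3) above IGFBP4 (55.2). VEGFA, which drives vessel growth, was at 289 CPM and 20.03 per kilobase. PTHLH, a factor known in bone metastasis, was at 2.59 CPM, and the stress cytokine GDF15 at 1.70 CPM.

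Of 50 cytokines and chemokines 39 are listed and 26 were at or above 1 CPM. The neutrophil chemokine CXCL8 led at 205 CPM [199.5 to 209.8] and 89.97 per kilobase, followed by LIF (47.8), IL11 (40.4) and CSF1 (36.2 CPM per kilobase). IL6 was at 1.23 CPM and oncostatin M (OSM) at 0.233 CPM, while IL1A was at 0.0333 CPM. Promoters of this list had a median of 6.5 CG over 28 windows, against 22 over all windows.

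Among proteases and inhibitors, 44 of 55 are listed and 35 were at or above 1 CPM. Urokinase (PLAU) was at 435 CPM and 148 per kilobase, with 31.1% of its exonic length shared, and its receptor PLAUR at 172 CPM and 38.7. ADAM9, a membrane sheddase, was at 801 CPM and 116 per kilobase, and with the longest transcript it lay above PLAU (209 and 164). TIMP1, which inhibits metalloproteases, was at 82.3 CPM. Of the metalloproteases, MMP14 was at 109.5 CPM, MMP1 at 2.73 CPM and MMP10 at 0.0998 CPM.

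Matrix genes had a median of 30.8 CPM, with 54 of 62 listed and 46 at or above 1 CPM. The galectin LGALS1 led per kilobase at 379, then LAMB3 (210), the proteoglycan agrin (AGRN, 72.1) and the laminins LAMA5 (62.0) and LAMC1 (59.6). LAMA3, a partner of LAMB3, was at 3.74 CPM per kilobase. THBS1, an adhesive glycoprotein, was at 101.2 CPM and the fibrillar collagen chain COL1A1 at 7.25 CPM. SPP1 (osteopontin) and SPARC are not among the listed genes.

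Most defining markers of other cell types were near the floor or not among the listed genes. Of 26 blood cell genes 11 are listed and 3 were at or above 1 CPM, ITGA2B at 4.72 CPM, CORO1A at 3.23 CPM and CD14 at 1.36 CPM, while PTPRC, CD3E and HBB are not among the listed genes. Of 15 endothelial genes 4 were at or above 1 CPM, led by EGFL7 at 33.9 CPM, and PECAM1, CDH5 and VWF were at 0.299, 0.0333 and 0.0333 CPM. Of 16 stromal genes 4 were at or above 1 CPM, led by FBLN1 at 37.7 CPM, with PDGFRB at 0.166 CPM and COL1A2 at 0.0333 CPM. Of 48 genes restricted to other organs 18 are listed and 4 were at or above 1 CPM, the highest being MBP, the myelin protein, at 76.6 CPM.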

How the data were processed

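Total RNA of DU145 cells was sequenced as paired-end reads, per the series' design text. The submitters' processing notes name bcl2fastq 2.19.1, HISAT2 2.1.0, HTSeq 0.6.1 and build hg19. Neither labels nor headers state the annotation release, the strand setting or the rule for listing a gene. The values deposited by the authors are CPM, 1 column for 1 library. All values were whole multiples of the smallest (within 0.001), which was read as 1 read, and all but 163 genes had an even number, so 2 reads were taken as 1 pair.

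Lengths, types and shared exons came from GENCODE 29 (GRCh38) by gene ID, with 99.7% of genes matched. Promoters came from RefSeq (GRCh38.p14). CPM per kilobase used merged exons, and intervals are exact 95% Poisson. No test was run, since there is 1 library. Python 3.11.15, pandas 2.3.3 and scipy 1.17.1 were used, and the steps were tested on simulated data.

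Members and lists were chosen with earlier results of these data known. Named are the 15 highest genes by CPM and per kilobase, defining members, up to 8 highest members per kilobase and up to 6 lowest of each list. Other genes, among them ligands, TRPC channels and partners of a named gene, were named after their values were seen. Some members of the lists are not reported here.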

Additional observations from a re-analysis of the deposited data

How the results depend on the processing

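Without mitochondrially encoded genes every other CPM was multiplied by 1.078, and the 10 highest genes held 3.34% of the reads. With a limit of 1 CPM per kilobase in place of 1 CPM, the members past the limit numbered 12 for plasma membrane calcium channels, 1 for genes of other organs, 0 for blood cells, 2 for endothelium and 1 for stroma. Thresholds of 0.5 and 2 CPM gave 15925 and 12784 genes past the limit in place of 14236.

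For the 349 genes named by rule, levels per kilobase of the longest transcript were 1.0 to 4.98 times those with merged exons (median 1.26). The leading member was then another in 5 of 24 lists: VIM led the mesenchymal genes, TNFRSF1A the cytokine receptors, SARAF store-operated entry, GRN the growth factors and ADAM9 the proteases. Orders named within lists also turned for ZEB1 and SNAI1, ZEB2 and SNAI2, KRT18 and KRT80, EREG and TGFA, and AREG and IGFBP4. The same held for ITPR1 and ITPR2, CALR and HSPA5, TSPAN18 and TSPAN6, and LOXL2 with CYR61 and NT5E. The values are given beside each or, for EREG and TGFA, were 22.3 and 21.9 CPM per kilobase. Of 568 neighbouring places within lists, each from a member at or above 1 CPM, 310 had overlapping intervals. Their order is not taken as settled, though overlap of intervals is not a test of a difference. Spread between cultures cannot be given from 1 library. No paired analysis was possible because the result comes from no test.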

Other observations

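Other gene groups of the control library were read in lists chosen after the data were seen. HOX genes, which mark position along the body axis, were counted by cluster. All 11 genes of the A cluster are listed, 8 of 10 of the B cluster, 8 of 9 of the C cluster and 4 of 9 of the D cluster. At or above 1 CPM were 8, 8, 7 and 1 of these listed genes, beside 82.2% of all listed protein-coding genes. Some share much of their exonic length with another gene, such as HOXA7 (62.5%), HOXC5 (59.9%) and HOXD3 (74.1%), which makes their values uncertain. HOXA3 was at 33.5 CPM, HOXB9 at 28.5 CPM and HOXB7 at 24.3 CPM, and HOXD9, the D cluster gene past 1 CPM, at 5.36 CPM. HOXB13, the posterior gene of prostate, is not among the listed genes.

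Integrin chains were unequal in level. Of 26 genes 23 are listed and 16 were at or above 1 CPM, beside 82.2% of all listed protein-coding genes. At or above 10 CPM were 10 of them, with ITGA2 and ITGAV at 125.8 and 125.9 CPM. Per kilobase ITGB1, the shared beta chain, led at 300.9, then its laminin-binding partner ITGA3 (138), the fibronectin receptor chain ITGA5 (41.7) and the laminin receptor chain ITGA6 (32.05). ITGB6 and ITGB8, which activate TGF-beta, were at 0.0998 and 0.233 CPM.

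Of the tumour suppressors, RB1 was at 76.2 CPM and CDKN2A at 342 CPM. The cell cycle gene CCND1 was at 736 CPM, MYC at 108 CPM and TERT, the catalytic subunit of telomerase, at 22.3 CPM. These levels say nothing of the sequence or activity of the proteins.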
